A study of Mus musculus with 8 samples.

Results

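Dendritic cells decide how a T cell responds to the antigen they present through the ligands they carry beside it, and the 9 genes described here encode ligands, receptors and cytoskeletal parts of that equipment: Fscn1, Cd40, Cd80, Cd83, Cd86, Cd274, Pdcd1lg2, Icosl and Cd200. They were chosen by name, as costimulation and maturation genes, with earlier results of these data known. Each was read from the brightest probe set whose platform annotation names it and no other gene. All 9 had such a probe set, out of 19938 genes measured this way. The study sorted myeloid dendritic cells from bone marrow (4 arrays) and classical dendritic cells from spleen (4 arrays) of the same 4 mice, and measured total RNA on Affymetrix mogene 1.0 ST arrays. All mice were CX3CR1-gfp/+, with a green fluorescent protein gene in place of 1 allele of the fractalkine receptor Cx3cr1, and 8 weeks old. The labels name no treatment. The sources used here do not give the surface proteins on which each population was sorted.

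As background, a naive T cell needs antigen together with a second signal, which CD80 and CD86 give by binding CD28. The same ligands bind CTLA-4, which restrains the T cell. ICOSL binds ICOS, and the ligands encoded by Cd274 (PD-L1) and Pdcd1lg2 (PD-L2) bind the inhibitory receptor PD-1. CD40 receives the signal of CD40 ligand on helper T cells and acts through NF-kB. When dendritic cells mature they raise these molecules, gain CD83 and the actin-bundling protein fascin (Fscn1), and move to lymph nodes through the chemokine receptor CCR7.

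Promoter sequences of RefSeq, build GRCm38.p6, from 250 bases before to 50 bases after the annotated start, were at hand for 6 of the 9 genes (Fscn1, Icosl, Cd80, Cd200, Cd274 and Pdcd1lg2). Those of Fscn1, the member with the largest difference below, and of the neighbouring PD-1 ligand genes are shown, 5′ to 3′ on the strand of the gene, with matches of the searched motifs in capitals. The windows are chr5:142960105-142960404, chr19:29367188-29367487 and chr19:29410669-29410968, all on the plus strand.
Fscn1: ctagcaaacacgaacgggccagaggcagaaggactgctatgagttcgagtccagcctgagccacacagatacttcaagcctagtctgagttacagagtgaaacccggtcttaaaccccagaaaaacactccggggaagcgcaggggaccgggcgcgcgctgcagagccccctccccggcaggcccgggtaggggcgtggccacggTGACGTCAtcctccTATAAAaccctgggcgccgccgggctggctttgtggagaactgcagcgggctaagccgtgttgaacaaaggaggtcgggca
Cd274: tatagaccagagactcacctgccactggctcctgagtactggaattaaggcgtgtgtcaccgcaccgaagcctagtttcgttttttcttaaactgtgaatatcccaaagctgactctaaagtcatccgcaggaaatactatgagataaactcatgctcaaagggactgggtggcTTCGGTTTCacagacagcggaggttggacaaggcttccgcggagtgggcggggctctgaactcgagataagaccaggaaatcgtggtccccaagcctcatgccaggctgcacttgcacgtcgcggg
Pdcd1lg2: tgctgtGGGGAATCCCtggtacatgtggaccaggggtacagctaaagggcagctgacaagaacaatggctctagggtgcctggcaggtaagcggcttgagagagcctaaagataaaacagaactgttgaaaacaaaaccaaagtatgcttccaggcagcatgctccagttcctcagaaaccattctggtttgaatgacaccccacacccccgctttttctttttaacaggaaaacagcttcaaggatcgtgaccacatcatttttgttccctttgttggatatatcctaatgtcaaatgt
The motifs were chosen after the sequences were seen and searched on both strands: TGACGTCA (the cAMP response element), GAAANNGAA (an interferon regulatory factor core), AGAGGAA (an ETS factor core), TATAAA (the TATA box) and the NF-kB consensus. The Fscn1 window holds TGACGTCA, which is its own reverse complement, 45 bases before the start, and a TATAAA at 31 bases before it. Of all 32851 promoter windows of the table, 1.79% hold TGACGTCA and 13.6% hold TATAAA. The Cd274 window holds 1 GAAANNGAA match on the minus strand, a motif of 8.56% of windows, and the Pdcd1lg2 window holds an NF-kB match that fits the consensus on both strands, a motif of 8.46% of windows. The Icosl window has 1 NF-kB match, the Cd80 window has 1 TATAAA match on the minus strand and past the start, and none of the 5 motifs occurs in the Cd200 window. AGAGGAA, present in 10.4% of windows, is in none of the 6. The matches are letters in a window and were not tested as sites of a factor.

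All values below rest on 4 arrays per group, 1 per mouse, and all log2 differences and SEs are those of the limma fit, as bone marrow minus spleen. Levels are the deposited probe set intensities, which have no detection call beside them, and an intensity of 1 gene is not comparable with that of another. The median intensity of an array ranged from 125 to 135 in bone marrow and from 129 to 135 in spleen. Dendritic identity was checked on 18 genes. Among them Itgax (CD11c) read 6408 in bone marrow against 8432 in spleen, H2-Ab1 (class II) read 15354 in bone marrow against 14678 in spleen, and the lineage factor Zbtb46 read 214 in bone marrow against 520.0 in spleen. Of those 18 genes, 8 were lower in bone marrow and 1 was higher, where 9.20% of all genes were lower and 9.26% higher. The largest falls were in markers of dendritic cell subsets: Xcr1, of the cross-presenting subset, read 141 in bone marrow against 1580 in spleen (11.2-fold lower), and Esam and Cd4, of the other classical subset in spleen, were 5.11-fold and 4.58-fold lower. Cd8a was 4.07-fold lower, while Clec9a and Sirpa, further markers of these subsets, had log2 fold changes of 0.11 and 0.17 with no call. Cd209a (DC-SIGN family), the 1 gene higher, read 8152 in bone marrow against 4031 in spleen. The part of subset make-up in the results below was not tested. Neutrophil markers (15 of 16 higher and none lower) and monocyte and macrophage markers (14 of 16 higher and none lower) stood far higher in the bone marrow arrays. The summed intensity of the neutrophil markers ranged from 25250.1 to 33711 in bone marrow against 2682 to 3578 in spleen, and that of the monocyte and macrophage markers from 51649 to 63636 in bone marrow against 13690.4 to 16228 in spleen. Their part in the results below was not tested, and in such sorted bulk samples fewer cells that express a gene and less RNA per cell cannot be told apart.

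All 9 genes had a lower mean in bone marrow than in spleen, and 8 of them passed the test (limma on log2 intensity over all genes, Benjamini-Hochberg adjusted p under 0.05). None was higher. Over all 19938 genes, 18.5% passed by the same rule, 9.20% lower and 9.26% higher in bone marrow. The median log2 fold change of the 9 genes was -0.99, against -0.01 over all genes. In the same 8 genes every bone marrow array lay below every spleen array, which held for 10.2% of all genes (20.6% did not overlap in either direction). Fscn1, Cd80, Cd200 and Icosl were called and at least 2-fold lower, as were 1.49% of all genes. Because the 9 genes were chosen with earlier results of these data known, the shares over all genes give scale and are not a test. The summed intensity of the 9 genes per array ranged from 4646 to 4808 in bone marrow and from 8668 to 9325 in spleen.

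**Figure D1:**
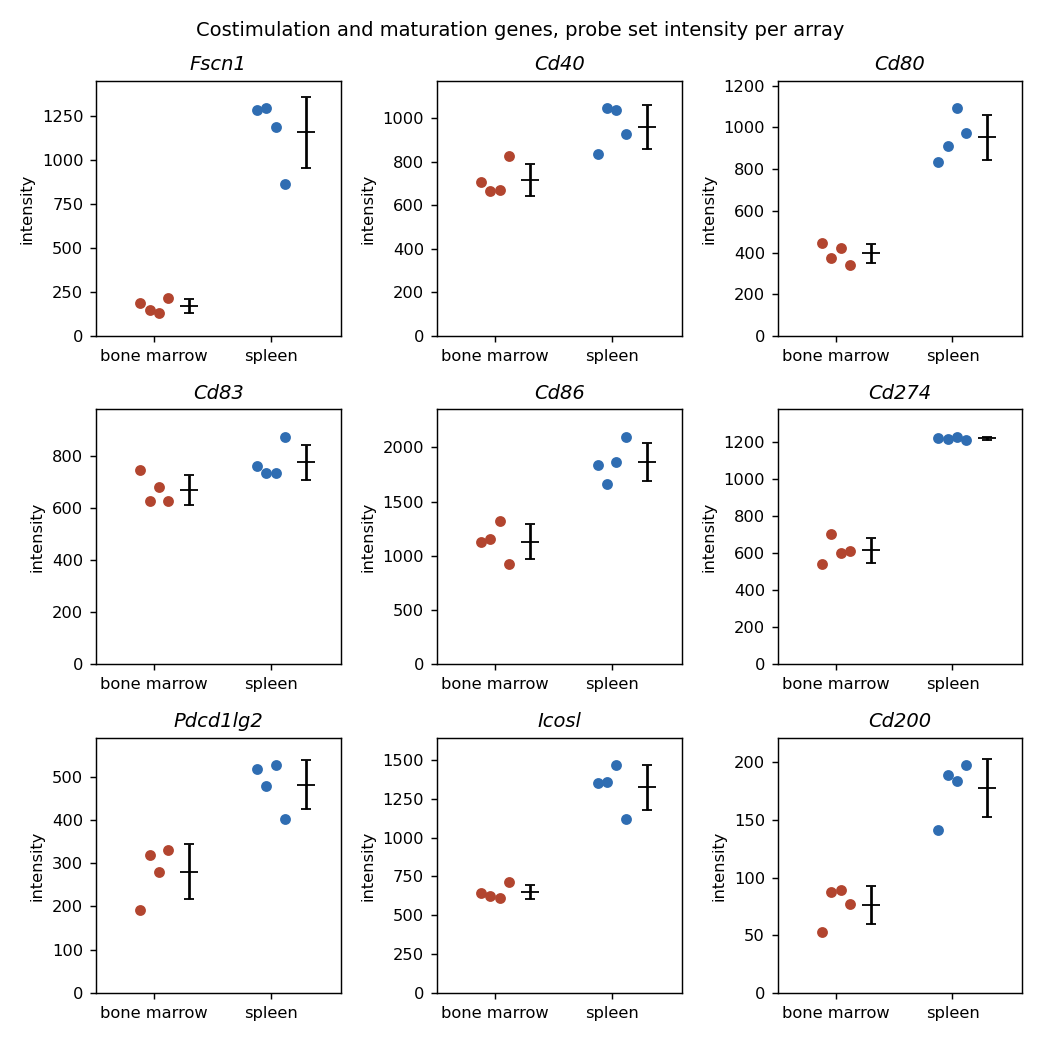
Probe set intensity (linear scale, from 0) of the 9 genes in each array; points are arrays, bone marrow left and spleen right, and the bar beside each group is the mean with its SD (n = 4). In 8 panels the 4 bone marrow points lie below all 4 spleen points, and in the Cd83 panel the groups overlap.

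The ligands of CD28 and CTLA-4 were both lower in bone marrow. Cd80 stood at 444, 373, 423 and 342 in bone marrow replicates 1 to 4, against 835, 909.8, 1091 and 971 in spleen replicates 1 to 4. The groups were well apart, with the lowest spleen array 1.88 times the highest bone marrow array. Cd80 averaged 395 ± 46.4 in bone marrow and 952 ± 108 in spleen (SD, n = 4 each), a log2 difference of -1.27 (SE 0.11, limma adjusted p = 1.9e-06). A separate Cd80 probe set, dimmer and not used in the fit, read 213, 235, 209.7 and 186 in bone marrow and 463, 594, 579 and 598 in spleen. Both probe sets therefore put Cd80 lower, by 2.41-fold and 2.65-fold.

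Cd86, the ligand that resting dendritic cells already carry, stood at 1125, 1158, 1318 and 921 in bone marrow, against 1839, 1663, 1866 and 2097 in spleen. No arrays overlapped, although the gap was narrower than for Cd80, with the lowest spleen array 1.26 times the highest bone marrow array. The log2 difference was -0.73 (SE 0.11, limma adjusted p = 0.00037), or 1.66-fold lower. Icosl, the ligand of ICOS, stood at 645, 627, 614 and 712 in bone marrow, against 1349, 1356, 1466 and 1123 in spleen. Its bone marrow arrays were close to each other, and the lowest spleen value was that of replicate 4. Icosl was 2.03-fold lower (log2 difference -1.02, SE 0.09, limma adjusted p = 4.7e-06).

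The ligands of PD-1, which dampen T cells, were lower beside the activating ones. Cd274 stood at 541, 704, 601 and 610.4 in bone marrow, against 1221, 1214, 1226 and 1207 in spleen. The spleen arrays agreed more closely here than in any other of the 9 genes, with an SD of 8.12 around a mean of 1217, against 67.3 around 614 in bone marrow. Cd274 was 1.99-fold lower (log2 difference -0.99, SE 0.09, limma adjusted p = 2.8e-06). Pdcd1lg2 stood at 192, 318, 280.2 and 331 in bone marrow, against 517, 478, 526 and 402 in spleen. Bone marrow replicate 1 was the lowest array and spleen replicate 4 the lowest of its group. Pdcd1lg2 was 1.74-fold lower (log2 difference -0.80, SE 0.15, limma adjusted p = 0.0022).

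Cd40, the receptor through which helper T cells license dendritic cells, had the smallest fold among the 8 called members. Its intensities were 706, 665, 671 and 826 in bone marrow, against 833, 1045, 1037 and 929 in spleen. The groups nearly touched: the lowest spleen array was 1.01 times the highest bone marrow array. Cd40 was 1.34-fold lower (log2 difference -0.42, SE 0.10, limma adjusted p = 0.0088). Without spleen replicates 3 and 4 together, an alternative added after the data were seen, the limma adjusted p was 0.070.

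Cd83, a membrane protein of mature dendritic cells that keeps CD86 and class II on the surface, was the 1 member with no call. It stood at 749, 627, 683 and 630.3 in bone marrow, against 762, 735, 737 and 876 in spleen. Bone marrow replicate 1 lay above spleen replicates 2 and 3. The log2 fold change was -0.21 with a 95% interval from -0.40 to -0.02 (limma adjusted p = 0.15), so a fall as large as that of Cd80 or Cd86 lay outside the interval.

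Cd200, a membrane protein that binds an inhibitory receptor on myeloid cells, was the dimmest member, with 42.9% of all genes dimmer still. It stood at 53.1, 87.3, 89.1 and 76.8 in bone marrow, against 141, 189, 184 and 198 in spleen. Replicate 1 was lowest in each group, and the groups did not overlap. Cd200 was 2.35-fold lower (log2 difference -1.23, SE 0.16, limma adjusted p = 8.3e-05).

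Fscn1 showed the largest difference of the 9. It stood at 189.9, 150.3, 130.2 and 214 in bone marrow, against 1287, 1295, 1192 and 866 in spleen. Even the lowest spleen array was 4.04 times the highest bone marrow array. Fscn1 was 6.82-fold lower (log2 difference -2.77, SE 0.16, limma adjusted p = 8.8e-08), and 26 of all 19938 genes had a more negative log2 fold change. Among 20 other measured genes of actin bundling and cell protrusions, 5 were lower and 2 were higher, with a median log2 fold change of 0.01. The shares over all genes were 9.20% lower and 9.26% higher. Its paralogs Fscn2 and Fscn3 had log2 fold changes of 0.01 and 0.05, neither of which passed. Actn1, an actin crosslinker, was 2.98-fold lower (log2 difference -1.57, SE 0.20, limma adjusted p = 9.0e-05). Pls3 (a plastin) and Ezr (ezrin) were lower by log2 differences of -0.59 and -0.46, while Myo10 (a filopodial myosin) and Msn (moesin) were 1.78-fold and 1.34-fold higher. The Ezr groups overlapped, with 890 in bone marrow replicate 4 and 805 in spleen replicate 4. Myo10 read 349 in bone marrow replicate 2 and from 151 to 191 in the other bone marrow arrays. The count of 5 lower was 3 when any one of bone marrow arrays 1 and 3 and spleen arrays 1, 2 and 3 was left out, and also 3 with median centring.

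**Figure D2:**
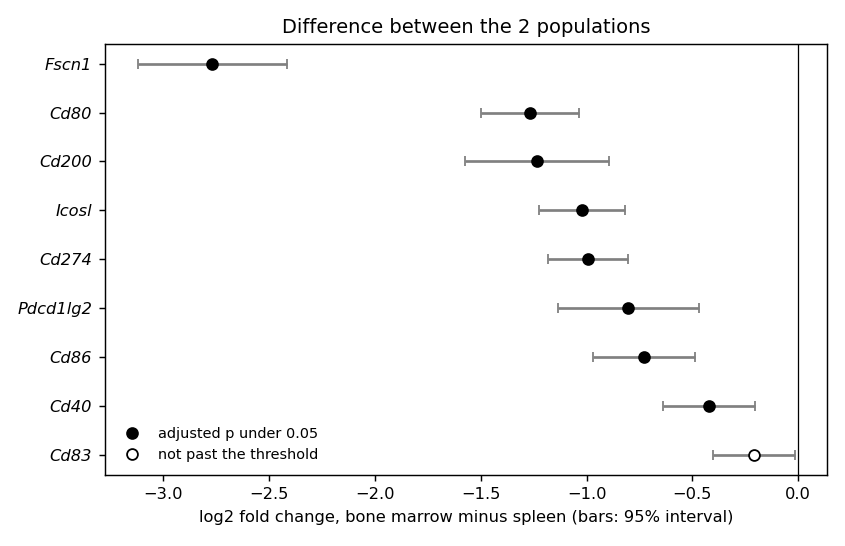
Log2 fold change, bone marrow minus spleen, of the 9 genes with the 95% interval of the limma fit (4 arrays per group). Fscn1 lies apart at -2.77, the others range from -1.27 (Cd80) to -0.21 (Cd83), and the open point of Cd83 did not pass the threshold.

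Log2 differences ranged from -2.77 to -0.21 over the 9 genes. To set members against each other, 4 pairs were compared as log2 ratios within each array. The products of 2 pairs share a receptor, those of 1 pair bind each other, and those of Icosl and Cd86 bind the related receptors ICOS and CD28. The log2 ratio of Cd86 over Cd80 was 1.34, 1.64, 1.64 and 1.43 in bone marrow, against 1.14, 0.87, 0.77 and 1.11 in spleen. The groups did not overlap, with the ratio 1.45-fold higher in bone marrow (two-sided exact permutation p = 0.029, adjusted p = 0.11 over the 4 pairs). That p is the smallest that 4 arrays against 4 allow, and a single pair at this value cannot pass after adjustment. Pdcd1lg2 over Cd274 was -1.16 ± 0.25 in bone marrow and -1.35 ± 0.17 in spleen (SD, n = 4 each, exact permutation adjusted p = 0.29), and Cd274 over Cd80, whose products bind each other on 1 cell, was 0.64 ± 0.29 in bone marrow against 0.36 ± 0.16 in spleen (SD, n = 4 each, exact permutation adjusted p = 0.29). Icosl over Cd86 was -0.79 ± 0.31 in bone marrow and -0.50 ± 0.28 in spleen (SD, n = 4 each, exact permutation adjusted p = 0.29). These 3 pairs overlapped between the groups.

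**Figure D3:**
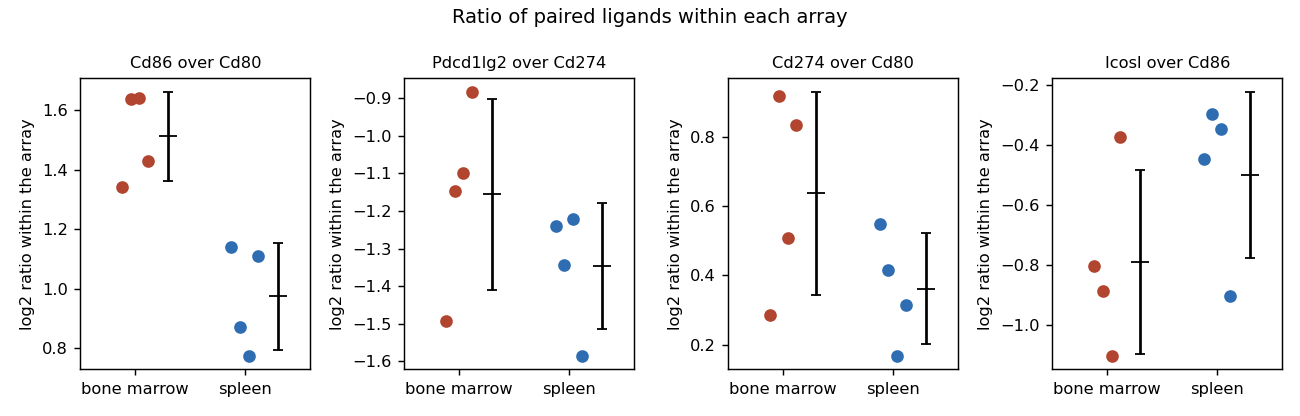
Log2 ratio of the intensities of paired genes within each array; points are arrays, bone marrow left and spleen right, with mean and SD (n = 4) beside them, on axes that do not start at 0. The groups are apart for Cd86 over Cd80, with means of 1.51 (bone marrow) and 0.97 (spleen). The other 3 panels overlap.

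Cd274 and Pdcd1lg2 lie next to each other on chromosome 19 in RefSeq (GRCm38.p6), and their neighbours were read as a comparison chosen after values were seen. Of the 4 protein-coding genes on each side, Jak2, the kinase of several cytokine receptors, was lower: 737, 767, 655 and 899.7 in bone marrow against 2048, 2344, 2346 and 2155 in spleen (log2 difference -1.55, SE 0.10, limma adjusted p = 2.0e-07). Of the others, Plgrkt and Ric1, which directly flank the pair, had log2 fold changes of -0.33 and -0.24 (limma adjusted p = 0.095 and 0.11). Insl6, Rln1, Ermp1, Mlana and 9930021J03Rik ranged from 0.05 to 0.11 and none passed.

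**Figure D4:**
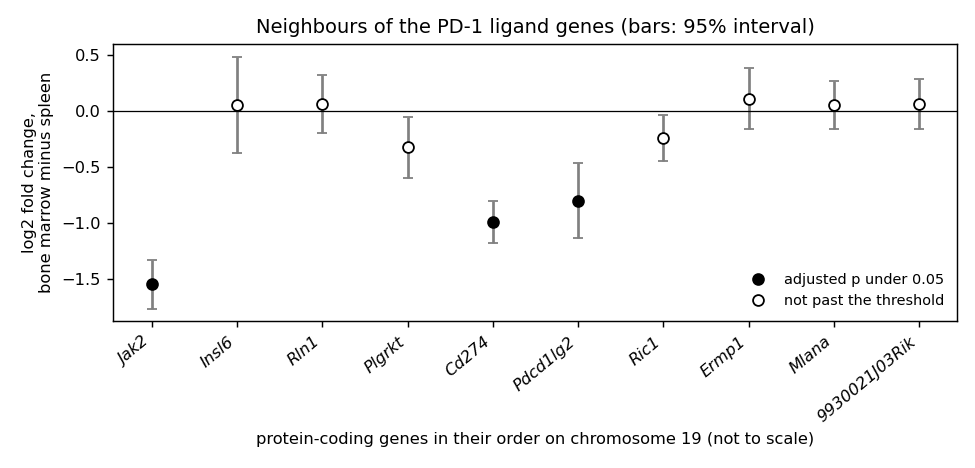
Log2 fold change, bone marrow minus spleen, with the 95% interval of the limma fit, for the PD-1 ligand genes and the 4 protein-coding genes on each side in chromosome order (not to scale). Jak2 (-1.55), Cd274 (-0.99) and Pdcd1lg2 (-0.80) passed the threshold and the other 7 did not.

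The wider maturation programme was read from a list drawn up with earlier results of these arrays known, so its counts are descriptive. Of 30 measured genes besides the members, 18 were lower and 4 were higher in bone marrow, with a median log2 fold change of -0.62. Over all genes, 9.20% were lower and 9.26% higher. Ccr7, the receptor that takes mature dendritic cells to lymph nodes, stood at 223, 206, 237 and 246 in bone marrow against 997, 931, 833 and 827 in spleen (log2 difference -1.97, SE 0.09, limma adjusted p = 9.5e-09). Slco5a1 (an orphan transporter) and Socs2 (a suppressor of cytokine signalling) were 5.64-fold and 4.37-fold lower. The 4 higher genes were the tetraspanin Cd63 (2.75-fold), the cytokine Il15 (2.28-fold), the chemokine Cxcl16 (1.57-fold) and Zmynd15. Other genes used to mark mature dendritic cells had no call: Lamp3 read 26.1 in bone marrow against 24.0 in spleen, and the chemokine genes Ccl22 and Ccl17 had log2 fold changes of -0.10 and 0.07. Among the members, Cd83 had no call either.

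Of 20 measured genes between CD40 and NF-kB, 9 were lower and 1 was higher, and 5 of the 20 also stand in the maturation list. The shares over all genes were 9.20% lower and 9.26% higher. Relb, the NF-kB subunit of the pathway that CD40 starts, stood at 427, 461, 422 and 501 in bone marrow against 1755, 1769, 1673 and 1426 in spleen, 3.65-fold lower (log2 difference -1.87, SE 0.09, limma adjusted p = 2.1e-08). Traf1, an adaptor of TNF receptors, was 3.68-fold lower, and Cyld, a deubiquitinase that limits the pathway, had a log2 difference of -0.59 and passed. Nfkbiz, a nuclear regulator of NF-kB, was the 1 gene higher (1.33-fold). Rela and the kinase gene Map3k14, which acts ahead of Relb, had log2 fold changes of -0.06 and 0.08 with no call. Of the other subunits, Nfkb2 and Rel passed with log2 differences of -0.59 and -0.43.

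Other ligands of T cells were read beside the members. Of 18 measured ligands outside the members, 5 were higher and 1 was lower in bone marrow, with a median log2 fold change of 0.08. Over all genes, 9.26% were higher and 9.20% lower. Vsir, which encodes the inhibitory ligand VISTA, stood at 2606, 2805, 2824 and 2865 in bone marrow against 1451, 1353, 1393 and 1182 in spleen, 2.07-fold higher (log2 difference 1.05, SE 0.08, limma adjusted p = 1.3e-06). Lgals9 (galectin-9) and Pvr (the poliovirus receptor, a ligand of TIGIT and CD226) were 1.74-fold and 1.41-fold higher. The adhesion ligand Icam1 was the 1 gene lower, by 1.53-fold (limma adjusted p = 0.0020). The inhibitory ligands moved both ways, with Cd274 and Pdcd1lg2 lower and Vsir and Lgals9 higher. The B7 relatives Cd276 and Vtcn1 had log2 fold changes of 0.09 and 0.08 and no call.

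Among 10 measured ligands of the TNF family, 2 were higher and 2 lower, where 9.26% of all genes were higher and 9.20% lower. Tnfsf13b, which encodes the B cell survival factor BAFF, was 3.22-fold higher (log2 difference 1.69, SE 0.10, limma adjusted p = 1.1e-07), and Tnfsf9 (4-1BB ligand) 1.46-fold higher. Tnfsf8 (CD30 ligand) and Tnfsf4 (OX40 ligand) were 1.81-fold and 1.34-fold lower. Tnfsf4 was dim, from 31.0 to 33.8 in bone marrow and from 38.2 to 47.4 in spleen. The count of 2 higher became 1 when bone marrow array 1 or spleen array 3 was left out. Cd70, the ligand of CD27, had a log2 fold change of -0.07.

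Of 10 measured genes of interferon signalling that controls PD-1 ligands, 1 was lower (Jak2, above) and 2 were higher, Irf2 and Ifngr2, by 1.28-fold and 1.19-fold. For this list and the next, the shares over all genes were 9.20% lower and 9.26% higher. The count of 2 higher was 0 when bone marrow array 1, bone marrow array 4, spleen array 2, or spleen arrays 3 and 4 together were left out, and with quantile normalization. It was 1 when bone marrow array 2 or spleen array 3 was left out and with the mouse as a replicate block. Irf1, the factor that interferon-gamma uses to raise Cd274, read 639 in bone marrow against 602 in spleen (log2 fold change 0.08, limma adjusted p = 0.65). Of 8 genes listed for the turnover of these ligands at the surface, 3 were higher and none lower: Marchf8 (a ubiquitin ligase of CD86) by 1.84-fold, Cmtm6 (which protects PD-L1 from degradation) by 1.46-fold and Dnm2 (dynamin) by 1.20-fold. Marchf1, the ubiquitin ligase of CD86 that CD83 opposes, read 345 in bone marrow against 347 in spleen.

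Receptors on T cells and the CD200 receptor genes were read in the same arrays. Of 10 measured genes, 2 were lower, Icos and Btla, and 1 was higher, Cd200r4, where 9.20% of all genes were lower and 9.26% higher. Cd200r4 was dim, from 42.4 to 59.0 in bone marrow and from 33.7 to 39.2 in spleen. Icos, the receptor of ICOSL, stood at 87.5, 81.2, 94.2 and 87.5 in bone marrow against 411, 483, 495 and 532 in spleen (log2 difference -2.45, SE 0.09, limma adjusted p = 1.7e-09). Btla, an inhibitory receptor also known on dendritic cells, was 2.67-fold lower. Cd28, Ctla4, Pdcd1 and Cd40lg had log2 fold changes between -0.07 and 0.10 and no call. Cd200r1, the receptor of CD200 on myeloid cells, read 263 in bone marrow against 251 in spleen.

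B cells and T cells also express several of the 9 genes, so their markers are given beside them. For scale beside each count, 9.20% of all genes were lower and 9.26% higher. Of 11 measured B cell markers, 6 were lower and 3 higher in bone marrow, with summed intensities from 2322 to 2623 in bone marrow and from 3624 to 4148 in spleen. Cd22 and Ms4a1 were 5.10-fold and 4.10-fold lower. Cd22 alone read from 314 to 455 in bone marrow and from 1651 to 2106 in spleen. On group means that difference is at least the whole gap between the sums, so the other markers together did not sum lower in bone marrow. The 3 higher were Blnk (4.24-fold), an adaptor of B cell receptor signalling, and Vpreb1 (2.31-fold) and Rag1 (1.74-fold), both of B cell precursors. Rag1 was dim, from 76.9 to 107 in bone marrow and from 44.8 to 60.7 in spleen. Vpreb1 read from 137 to 240 in bone marrow and from 57.1 to 104 in spleen. Cd79b, a chain of the B cell receptor complex, read 508 in bone marrow against 480 in spleen and Cd79a read 145 in bone marrow against 205 in spleen. Of 11 measured T and NK cell markers, 6 were lower and none higher, with sums from 1478 to 1965 in bone marrow and from 3382 to 3755 in spleen. Klrd1 alone read from 473 to 859 in bone marrow and from 1647 to 2173 in spleen, which is most of the gap between these sums. Cd5 was 3.50-fold lower, and Cd3e read 164 in bone marrow against 206 in spleen. Plasmacytoid dendritic cell markers had 3 of 8 lower and 1 higher, and stromal and endothelial markers 1 of 10 lower and 2 higher. Leaving out bone marrow array 2 gave 1 T and NK cell marker higher, and leaving out bone marrow array 4 gave 2 stromal markers lower. The part of these cells in the results was not tested. Of the dendritic identity genes, Zbtb46 (-1.28), Flt3 (-1.05) and Itgax (-0.40) had log2 fold changes within the range of the 9 genes, as did Esam (-2.35), Cd4 (-2.20) and Cd8a (-2.02). Xcr1 (-3.49) and Cd209a (1.02) lay outside that range, and Batf3, Irf8 and Irf4 lay between -0.09 and -0.06 with no call.

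**Figure D5:**
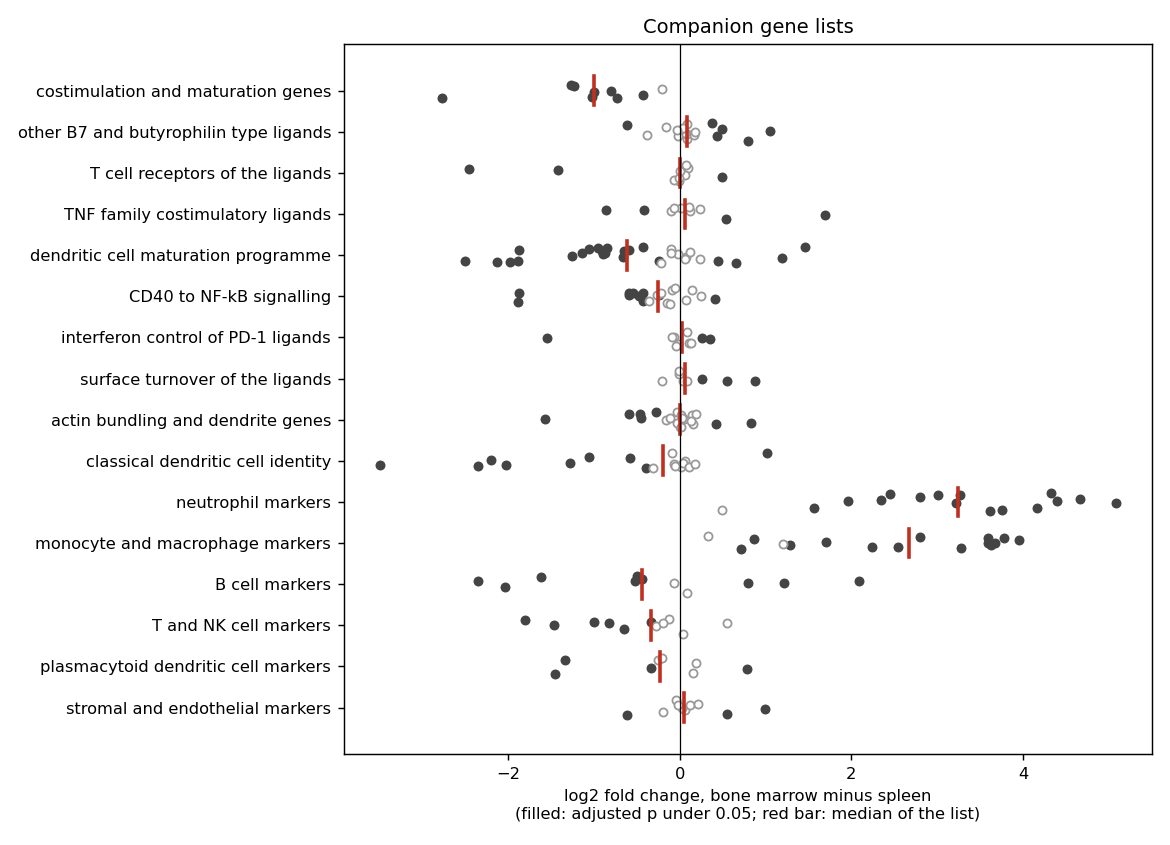
Log2 fold change, bone marrow minus spleen, of each measured gene (points; filled where the limma adjusted p was under 0.05) in the 9 genes and 15 companion lists, with the median as a red bar. The 9 genes have a median of -0.99 and the maturation programme of -0.62, while neutrophil (3.24) and monocyte and macrophage markers (2.67) lie to the right.

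Genes whose pattern over the 8 arrays was most like that of a member were found by the root mean square difference of mean-centred log2 intensity, among the brighter 9525 genes (9526 for Cd200). Nearest to Fscn1 were Dennd3 (0.16), Dtx1 (0.17) and Adam11 (0.22). Nearest to Cd80 were Lrp8 and Procr (0.12 each) and Vsig2 (0.12), and nearest to Cd86 were Cep162 (0.11), Msantd1 and Fhl3. Cd274 had Stard7 (0.05), Akr7a5 and Pdxp nearest, and Pdcd1lg2 had Ncaph (0.11), Pole and Brca2. Icosl had Cyp4f16 (0.05), Tbrg1 and Haus8 nearest, and Cd200 had Fignl1 (0.18), Pkib and Stard7. The members with smaller differences had Wbp1, Twsg1 and Fanca nearest to Cd40 and Efna4, Snhg5 and Rnf181 nearest to Cd83. Among the 9 genes themselves, Cd274 and Icosl were the closest pair (0.15) and Fscn1 and Cd83 the farthest (1.32). All these distances include the difference between the 2 groups, which the 8 arrays share.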

How the data were processed

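Total RNA of sorted cells was labelled from 100 pg to 2 ng with a kit for small inputs, per the labels' protocols. The authors deposited 1 intensity per probe set and array on a linear scale, and the submitters' processing notes name Affymetrix Expression Console 1.4. The sources used here do not say how background was corrected or how probes were normalized and summarized. Of 35556 probe sets, 21789 name exactly 1 gene in the platform annotation, 1621 name several and 12146 are unnamed here. The brightest probe set per gene was kept (19938 genes), no dim gene was removed, and limma 3.58.1 (lmFit, eBayes; R 4.3.3) was fitted to log2 intensities of all genes, as bone marrow minus spleen. Ratios of paired genes had exact permutation tests (scipy 1.17.1). The number of arrays limits the precision.

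The description labels give arrays of equal number the same mouse. Their deviations from the group means correlated across genes at 0.10, -0.09, -0.18 and -0.05 in mice 1 to 4. The labels name no test; the main fit has no block, and the mouse as a block is an alternative. Alternatives were quantile normalization, median centring, leaving out the dimmest 40% of genes, the mean of probe sets, an intensity trend, array weights, the mouse as a replicate block, and leaving out each array. The members and the 15 companion lists were chosen with earlier results of these data known. Of companion lists, the text names up to 3 called genes per direction, by size of fold, and any of the T cell and CD200 receptors. Other genes of those lists and of chromosome 19 were chosen after their values were seen. Listed genes without a probe set of their own are not reported here.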

Additional observations from a re-analysis of the deposited data

How the results depend on the processing

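The 8 members lower and 0 higher in bone marrow were found under every alternative run, except that 7 were lower without spleen replicates 3 and 4 together, where Cd40 missed the threshold. All 9 log2 fold changes stayed negative, and 143 of the 144 alternative values kept their side of the threshold. Over all genes, between 1381 and 2075 were lower and between 1496 and 1916 higher. The Cd83 adjusted p ranged from 0.081 to 0.42; its unadjusted p was 0.036. With the mouse as a replicate block the members' count stayed at 8 lower, and the only count of a list it moved by over 1.5 times was that of interferon genes called higher (1, against 2 without it). The log2 ratio of Cd86 over Cd80 differed by between 0.47 and 0.61 under the 13 alternatives run for it; with the block, by exact sign-flip over 4 mice, no p can be below 0.125. The other 3 ratios kept their sign.

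Of 480 list counts under alternatives, 22 moved by over 1.5 times. Interferon genes called higher (2) were 0 with quantile normalization and without spleen replicates 3 and 4 together, and from 0 to 2 when 1 array was left out. Without the dimmest 40% of genes, T cell and CD200 receptors called higher were 0. TNF family ligands called lower and stromal genes called higher were 1 each there. These counts fell because dim members leave the test. Actin genes called lower (5) were 3 with median centring and from 3 to 5 when 1 array was left out, and those called higher (2) were 1 without spleen replicates 3 and 4 together. When 1 array was left out, TNF family ligands called higher ranged from 1 to 2, stromal genes called lower from 1 to 2, and T and NK genes called higher from 0 to 1. Where no construction is named, the cause was not tested. Dim genes such as Cd200 and Lamp3 have no detection call, so background may compress their folds.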
